A study of Solanum lycopersicum with 2 samples.

Results

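The 14-3-3 proteins of tomato (Solanum lycopersicum) are encoded by the TFT genes, and their transcripts were compared between a leaf library of seedlings overexpressing SlRBZ and a leaf library of wild-type seedlings. Every locus whose gene reference held a TFT symbol followed by a number was taken, which gave 10 loci (TFT1 to TFT10) among 17803 gene loci and 22315 loci in all. All 10 passed the filter on low values (1 FPKM or more on average over the 2 libraries), and none of them joined several genes. The wild-type group carried no transgene per the labels and the other group carried the SlRBZ transgene. The sources used here do not give the promoter, the cultivar, the number of plants behind a library, or whether the overexpressor was 1 line. RNA came from the young primary leaf in both groups, with a single library each, so the differences have no replicate check and no p-value was computed. The design text speaks of duplicates, and whether a library pools them is not stated, so what a value and its counting interval stand for is uncertain in that respect. SlRBZ transcripts were not analysed here, so the genotype labels could not be checked against the transgene.

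14-3-3 proteins form dimers that bind other proteins at phosphorylated serine or threonine residues and so change their activity, stability or place in the cell. Plants have many isoforms, which bind overlapping sets of partners. In leaves they are known for activating the plasma membrane proton pump, for inhibiting phosphorylated nitrate reductase, and for linking kinase cascades, light and flowering signals to their targets.

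Values are FPKM (fragments per kilobase of locus, scaled to a total of fragments per library), as deposited, a level per length that can be compared between loci. Low values of gene-free loci moved in steps of 1 fragment. These put the scaling total at 7.47 M (mega) fragments in wild type and 14.2 M in the overexpressor. The same FPKM thus rests on fewer fragments in wild type and is less precise there. Whether the scaling total is the full depth of a library is not known. The files give no exon lengths, so 95% Poisson intervals were set for an assumed effective length of 500 bp, shorter than the coding sequence of a 14-3-3 protein. They rested on 124 to 2575 fragments per locus in wild type and 443 to 2819 in the overexpressor, and they cover counting error only. The leaf label was checked with the Rubisco small subunit and light-harvesting genes RBCS and CAB, 17 loci that summed to 280690 FPKM in wild type and 44234 FPKM in the overexpressor. This leaf marker sum was thus much lower in the overexpressor, and its part in the TFT values was not tested. In whole leaves, fewer cells of a type and less RNA per cell cannot be told apart.

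All 10 TFT loci were transcribed in both libraries and ranked high among the gene loci. Their levels ran from percentile 69.4 to 97.1 of gene loci in wild type and from percentile 84.4 to 97.2 in the overexpressor. The family summed to 2499 FPKM in wild type and to 1649 FPKM in the overexpressor, 1.52-fold lower. Its part of the FPKM summed over all gene loci past the filter was nevertheless higher in the overexpressor, 0.0707% against 0.0511% in wild type. The family sum was thus lower by less than the sum of all gene loci. Of the 10 loci, 7 (70%) were lower and 3 were higher in the overexpressor by any amount. Lower by any amount were 52.8% of all gene loci past the filter. Among gene loci whose mean lay within the range of the TFT loci it was 72.2%, so the TFT count is near that background. The 2 loci past a 2-fold limit were TFT1 and TFT9, both lower, and no locus was 2-fold higher.

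TFT1 was the most abundant family member in wild type and showed the largest difference of the 10. This isoform is known as a target of the Xanthomonas effector XopN, which binds it in tomato leaves. The locus lies on the minus strand of chromosome 11 (3533464 to 3537453, in the coordinates of the deposited table, whose genome build the sources used here do not give). It read 689 FPKM (663 to 717) in wild type and 206 FPKM (195 to 217) in the overexpressor, intervals that lie far apart. On the log2(FPKM + 1) scale, on which all differences below are given as overexpressor minus wild type, TFT1 differed by −1.74, which is 3.34-fold lower. Of all gene loci that passed the filter, 5.27% had a lower difference than TFT1.

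TFT9 and TFT3 were also lower. TFT9 (chromosome 7, plus strand, 59058945 to 59063496) read 273 FPKM (257 to 291) in wild type and 129 FPKM (120 to 137) in the overexpressor. Its difference of −1.08, or 2.12-fold, was just past the 2-fold limit. TFT3 (chromosome 4, plus strand, 58094139 to 58096300), also known as PBLT3, read 298 FPKM (281 to 316) and 173 FPKM (164 to 183). It was 1.72-fold lower (−0.78), short of the limit, although the counting intervals do not overlap.

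TFT6 and TFT10 stood on the other side, and they were the least abundant members in wild type. TFT6, studied in tomato for its part in adaptation to low phosphate, lies on the plus strand of chromosome 11 (3274680 to 3275901). It read 66.6 FPKM (58.6 to 75.5) in wild type and 122 FPKM (114 to 130) in the overexpressor, 1.82-fold higher (0.86). TFT10 (chromosome 4, minus strand, 58620807 to 58625601) read 33.2 FPKM (27.6 to 39.6) and 62.2 FPKM (56.6 to 68.3), 1.85-fold higher (0.89). For both, the intervals of the libraries do not overlap. The TFT10 locus overlaps by 594 bp a locus on the opposite strand, Solyc04g076070.1, whose level was 6.07 FPKM in wild type and 5.86 FPKM in the overexpressor. Nothing in the labels says if the libraries kept strand, so reads in that overlap cannot be assigned with certainty.

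The other 5 loci differed by less than 1.5-fold. TFT2 (chromosome 12, plus strand, 48549454 to 48552229) read 467 FPKM (446 to 489.9) in wild type and 396 FPKM (381 to 411) in the overexpressor, a difference of −0.24. TFT5 (chromosome 4, minus strand, 4428571 to 4430172) read 312 FPKM (295 to 331) and 244 FPKM (233 to 256), a difference of −0.35. These members ranked 2 and 3 by level in wild type, and both differed far less than TFT1. TFT8 (chromosome 12, minus strand, 3781389 to 3784207) read 93.5 FPKM (83.9 to 104) and 71.0 FPKM (65.0 to 77.5), a difference of −0.39. TFT7 (chromosome 4, minus strand, 57813201 to 57817028) read 130 FPKM (119 to 143) and 108 FPKM (101 to 116), a difference of −0.26. TFT7 is known to bind the kinase MAPKKKα and to promote cell death signalling in immunity. TFT4 (chromosome 2, minus strand, 29692418 to 29699297), also known as PBLT4 and bound by the Xanthomonas effector XopQ, read 135 FPKM (123 to 147) and 138 FPKM (129 to 146). Its difference was 0.03, and it was the 1 locus of the 10 whose counting intervals overlapped. The share of all gene loci with overlapping intervals was not computed, so this count has no background to be read against.

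**Figure D1:**
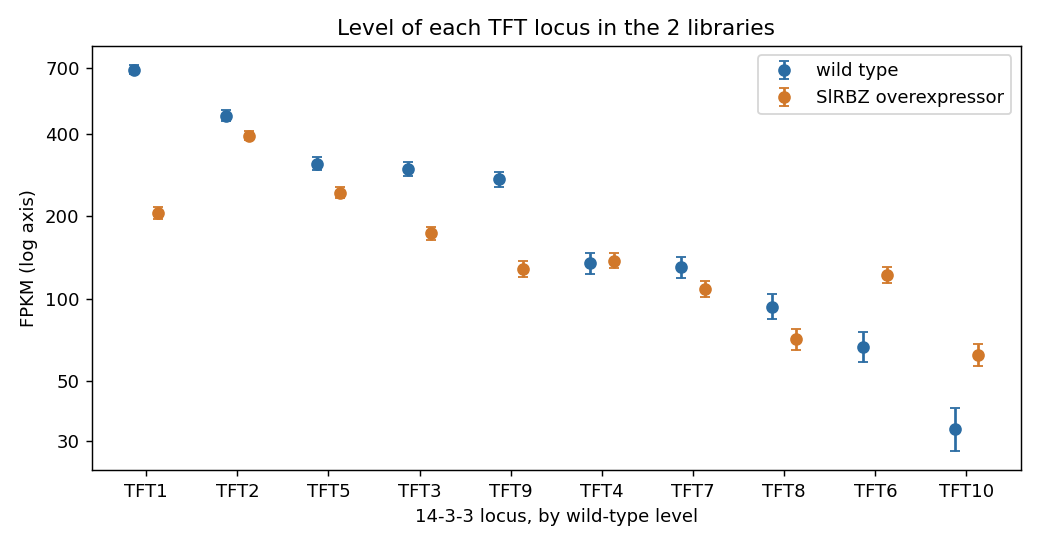
FPKM (log axis) of each TFT locus in wild type (blue) and the SlRBZ overexpressor (orange), ordered by wild-type level, with 95% Poisson intervals for an assumed effective length of 500 bp and 1 library per genotype. TFT1 drops from 689 to 206 FPKM, while TFT6 and TFT10 at the right lie higher in the overexpressor.

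The family's 2 lower loci of 10 (20%) stand beside 15.0% of the 17631 gene loci past the filter that were at least 2-fold lower, and its 0 higher loci beside 11.6% that were at least 2-fold higher. Abundant loci were lower more often in this comparison. Among the 3352 gene loci whose mean lay within the range of the TFT loci (47.7 to 448 FPKM), 30.8% were at least 2-fold lower and 6.50% at least 2-fold higher. The TFT count of lower loci is thus near the background of all loci and under that of loci of like abundance. The median TFT difference of −0.31 likewise lay between the median of all gene loci (−0.05) and that of loci of like abundance (−0.47). Single members lay on both sides of that group's median, within its spread. Of loci of like abundance, 11.8% had a lower difference than TFT1, and 92.4% and 92.6% had a lower difference than TFT6 and TFT10. Over all gene loci past the filter, the shares for TFT6 and TFT10 were 86.1% and 86.6%. At a limit of 1.5-fold, chosen after the values were seen, 3 TFT loci were lower and 2 higher, beside 44.8% and 11.2% of loci of like abundance and 25.3% and 21.0% of all gene loci.

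**Figure D2:**
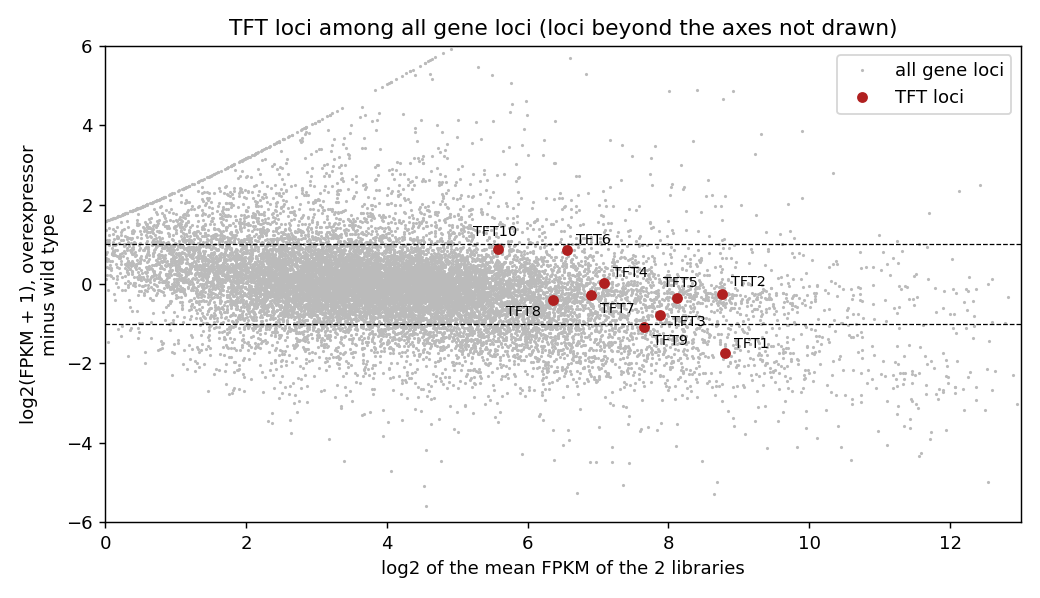
Difference in log2(FPKM + 1), overexpressor minus wild type, against the log2 mean FPKM of the 2 libraries, for all gene loci past the filter (grey) and the TFT loci (red), with dashed lines at 2-fold. TFT1 and TFT9 lie below the lower line, and the cloud itself tilts downwards among abundant loci.

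The make-up of the family differed between the libraries. A locus's share of the summed TFT FPKM does not depend on how the libraries are scaled to each other. TFT1 held 27.6% of the family in wild type (26.7 to 28.5%, exact binomial 95% interval on the assumed fragments) and 12.5% in the overexpressor (11.9 to 13.1%), a change of −15.1 percentage points. It went from rank 1 to rank 3. TFT2 took rank 1 in the overexpressor, with 18.7% in wild type (17.9 to 19.5%) and 24.0% in the overexpressor (23.2 to 24.8%). TFT5 moved from rank 3 to rank 2, with 12.5% and 14.8%.

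The least abundant members in wild type, TFT6 and TFT10, gained most in proportion. That order comes from the same single wild-type library against which the gain is measured. TFT6 held 2.67% of the family FPKM in wild type (2.35 to 3.02%) and 7.39% in the overexpressor (6.93 to 7.88%). TFT10 held 1.33% (1.11 to 1.58%) and 3.77% (3.44 to 4.13%). Both remained minor members, and together they held 3.99% and 11.2%. TFT9 lost share (10.9% and 7.80%), as did TFT3 (11.9% and 10.5%), while TFT4 (5.38% and 8.34%) and TFT7 (5.21% and 6.57%) gained. TFT8 was the 1 locus whose share intervals overlapped, at 3.74% (3.36 to 4.14%) and 4.31% (3.95 to 4.69%). The share intervals also cover counting error only, and no background was computed for this count.

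A share must fall for some members when it rises for others, so the remaining 9 loci were also taken without TFT1. Among these, TFT9 held 15.1% in wild type and 8.91% in the overexpressor, and TFT3 16.5% and 12.0%. TFT6 (3.68% and 8.45%), TFT10 (1.84% and 4.31%) and TFT4 (7.43% and 9.53%) kept higher shares in the overexpressor. TFT2 was at 25.8% and 27.4%, a gain of 1.60 points in place of 5.30 with TFT1 included, and TFT5 was at 17.3% and 16.9%. Leaving out TFT1 thus turned the direction of the share change for TFT5, and also for TFT8 (5.17% and 4.92%). Of the 937 FPKM lost over the 7 lower loci, TFT1 made up 51.6%, and TFT1, TFT3 and TFT9 together 80.4%. Without TFT1 the family summed to 1809 FPKM in wild type and 1443 FPKM in the overexpressor, 1.25-fold lower.

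**Figure D3:**
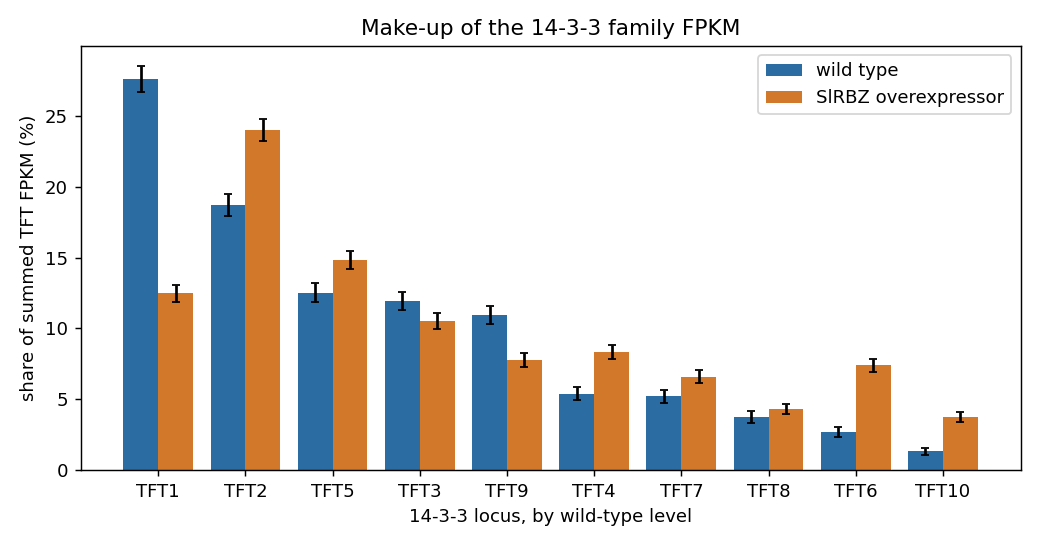
Share of the summed TFT FPKM (%) held by each locus in wild type (blue) and the SlRBZ overexpressor (orange), with exact binomial 95% intervals on the assumed fragments. TFT1 goes from 27.6% to 12.5%, and TFT2 is the most abundant member in the overexpressor.

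The order of the members was otherwise much alike in both libraries, with a Spearman rho of 0.92 over 10 loci that share the same libraries and annotation. In wild type the order from high to low was TFT1, TFT2, TFT5, TFT3, TFT9, TFT4, TFT7, TFT8, TFT6 and TFT10. Neighbours in that order whose counting intervals overlapped were TFT5 and TFT3, TFT3 and TFT9, and TFT4 and TFT7. In the overexpressor the order was TFT2, TFT5, TFT1, TFT3, TFT4, TFT9, TFT6, TFT7, TFT8 and TFT10. There the overlapping neighbours were TFT4 and TFT9, TFT9 and TFT6, TFT6 and TFT7, and TFT8 and TFT10. The span of levels was narrower in the overexpressor: the highest member stood 20.8-fold above the lowest in wild type and 6.36-fold in the overexpressor. The standard deviation of log2(FPKM + 1) over the 10 loci was 1.34 and 0.80. Over loci of like abundance it was 1.14 in wild type and 1.03 in the overexpressor, and over all gene loci 2.25 and 1.88. Without TFT1 the TFT values were 1.22 and 0.82.

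How the overexpressor was scaled set the direction of most members. Scaled to equal upper quartiles, TFT1 differed by −1.49 and TFT9 by −0.83, so TFT9 was no longer past 2-fold, while TFT6 (1.11) and TFT10 (1.14) passed 2-fold as higher. With sums made equal over gene loci without the 100 most abundant, TFT1 was still past the limit at −1.08, and TFT2, TFT5, TFT7 and TFT8 lay above 0. At equal sums over all gene loci TFT1 was at −0.68 and TFT9 at −0.02, and TFT4 (1.09) joined TFT6 and TFT10 past 2-fold. At equal sums over all loci, a scale on which the median of all gene loci was 2.76, all 10 lay past 2-fold as higher, TFT1 lowest at 1.18. In the order given, the medians of the TFT loci and of all gene loci were −0.06 and 0.18, 0.35 and 0.57, 0.75 and 0.95, and 2.61 and 2.76. Each scaling multiplies the overexpressor by 1 factor and so shifts all loci nearly alike, which fixes the order of the members and says nothing of its stability.

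**Figure D4:**
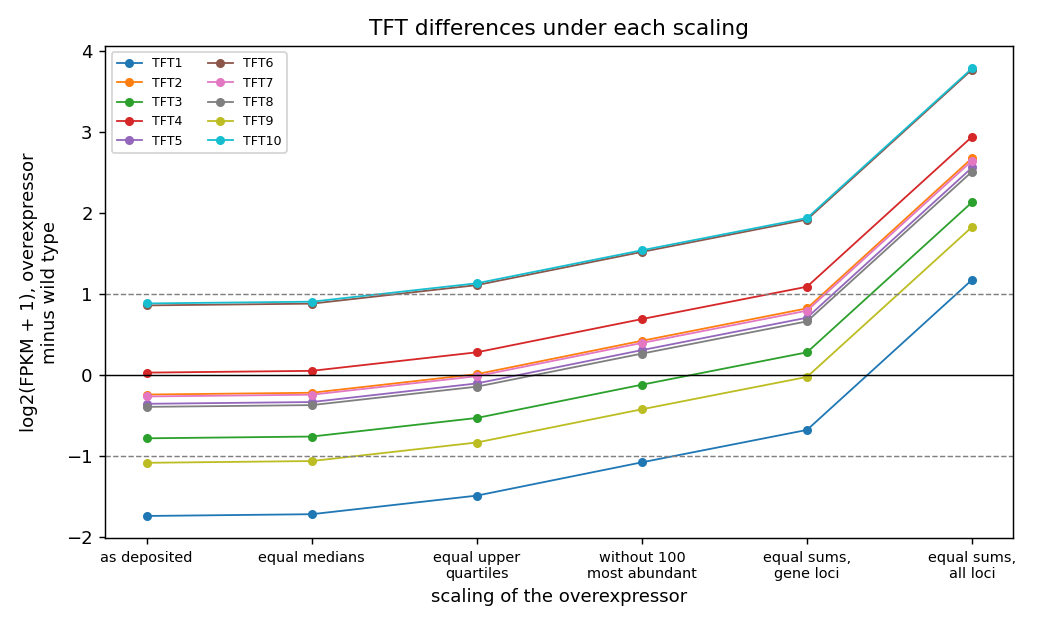
Difference in log2(FPKM + 1), overexpressor minus wild type, of each TFT locus with the libraries as deposited and under 5 other scalings, with dashed lines at 2-fold and a solid line at 0. The whole family moves up with the scaling factor, TFT1 from −1.74 as deposited to 1.18 at equal sums over all loci, in an order that 1 common factor leaves as it was.

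The TFT loci were spread over chromosomes 2, 4, 7, 11 and 12, with 4 on chromosome 4, 2 each on chromosomes 11 and 12, and 1 each on chromosomes 2 and 7. Of the 10 symbols, 8 occurred in the RefSeq gene table of tomato (assembly SLM_r2.1), all 8 on the same chromosome, and TFT2 and TFT5 were not matched. On chromosome 4, TFT7, TFT3 and TFT10 lie in this order, with 277 kb and 525 kb between them, and their differences were −0.26, −0.78 and 0.89. On chromosome 11, TFT6 and TFT1 lie 258 kb apart and differed in opposite directions. Members on chromosomes 4 and 11 thus did not share a direction, whereas TFT2 and TFT8 on chromosome 12 were both slightly lower.

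Loci of 9 protein classes known in plants to bind 14-3-3 proteins were examined by symbol, and 8 classes had a measured locus, 11 loci in all. The patterns read the start of a symbol, so members named with a prefix can be missing. LECDPK2, by its symbol a calcium-dependent kinase, was not among the 11. It read 8.53 FPKM in wild type and 14.6 FPKM in the overexpressor, a difference of 0.71. Membership rests on the symbol alone, and whether the protein of each locus, such as ABZ1, binds 14-3-3 proteins was not tested. Of these 11, 6 (54.5%) were at least 2-fold lower and 0 higher, beside 15.0% and 11.6% of all gene loci, with a median difference of −1.10. The patterns were chosen with earlier results of these data known, so the count is no independent result about the clients. The 6 include SP5G, which was listed at 0 in the overexpressor and passed the filter through its wild-type value alone. The lower loci include abundant and low ones. Among gene loci in the abundance range of the TFT loci, 30.8% were at least 2-fold lower and 6.50% higher. A background matched to the levels of the clients was not computed. For the plasma membrane proton ATPases, which 14-3-3 proteins activate, LHA4 read 5740 FPKM in wild type and 2670 FPKM in the overexpressor, 2.15-fold lower. LHA2 read 397 and 155 FPKM, 2.56-fold lower, while LHA1 read 37.5 and 50.8 FPKM, 1.35-fold higher. The pumps thus differed in direction among themselves, as the TFT loci did.

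In carbon and nitrogen metabolism, SPS, sucrose phosphate synthase, read 124 FPKM in wild type and 29.9 FPKM in the overexpressor, 4.05-fold lower. NIA, nitrate reductase, read 534 and 359 FPKM, 1.48-fold lower and short of the limit. Both enzymes are known as 14-3-3 partners in their phosphorylated form. PHOT2, a phototropin blue light receptor, read 721 and 394 FPKM, a difference of −0.87.

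Florigen-type proteins bind 14-3-3 proteins in complexes with bZIP factors, as known from rice. SP2G of this family read 4.85 FPKM in wild type and 1.27 FPKM in the overexpressor. SP5G read 1937 FPKM in wild type and was listed at 0 in the overexpressor. Since a listed 0 may stand for an estimate that failed, no fold is given for SP5G, although it counts among the 6 lower loci. The ACC synthase locus ACS6, of a class that makes the ethylene precursor, read 7.19 and 2.46 FPKM, 2.37-fold lower. The low loci CPK1, a calcium-dependent kinase (9.69 and 16.5 FPKM), and ABZ1, a bZIP factor (2.99 and 5.38 FPKM), differed by 0.71 and 0.68. With the 100 most abundant gene loci left out of the scaling, 3 of the 11 were 2-fold higher and 2 lower. On that scale the median of all gene loci was 0.57. The share of all gene loci past 2-fold was not computed there, so these counts have no background to be read against.

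**Figure D5:**
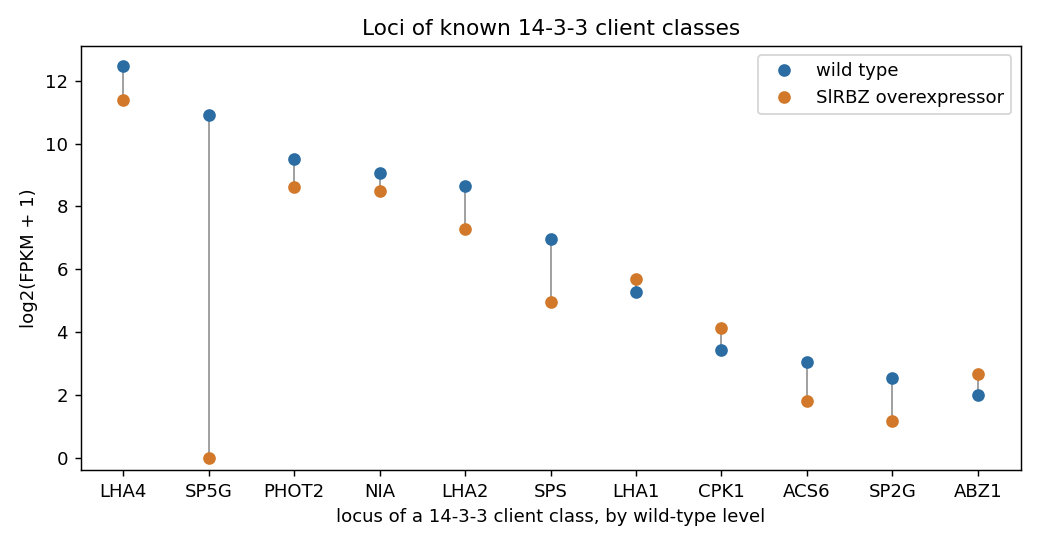
Level as log2(FPKM + 1) of the 11 loci of 14-3-3 client classes in wild type (blue) and the SlRBZ overexpressor (orange), ordered by wild-type level, with grey lines joining the libraries. LHA4, LHA2, SPS, ACS6 and SP2G lie at least 2-fold lower, and SP5G is listed at 0 in the overexpressor.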

How the data were processed

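Leaf RNA was sequenced from 1 wild-type and 1 SlRBZ overexpressor library. The authors deposited 1 table of FPKM per locus, per the file headers. TopHat is named in the submitters' processing notes. The sources used here do not give its version, the counting tool, genome build, annotation or strandedness. Both columns were tied to samples by title, with 0 columns left untied.

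Differences were taken as log2(FPKM + 1) over gene loci averaging 1 FPKM or more, which understates changes of low loci, and a locus was called at 2-fold. The scaling total was fitted on unstranded gene-free loci of at least 300 bp. With a tolerance of 0.02, 88.4% of 1509 low values in wild type and 88.5% of 915 in the overexpressor (up to 16 fragments) were whole. The scripts were tested on simulated data. Python 3.11.15, pandas 2.3.3 and scipy 1.17.1 were used.

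The members, the client patterns and the tests were chosen with earlier results of these data known. All TFT loci were named, and of the clients those past 2-fold and at most 1 further locus per class, the most abundant. Symbol patterns for pollen, fruit and flower markers found 0 loci, the meristem gene TKN2 read 6.61 and 3.47 FPKM, and 3 symbols caught by the seed pattern were not used, since they only share its first letters. Protein identity between members was not analysed here.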

Additional observations from a re-analysis of the deposited data

How the results depend on the processing

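No paired analysis was possible because each genotype had 1 library. Shares change with no scaling. The pseudocount (0.1 or 5), the filter (none, or a mean of 5 FPKM), equal medians and the removal of joined loci (0 among the TFT loci) left the TFT counts at 2 lower and 0 higher. Of the client loci, 6 lower as deposited became 4 at a pseudocount of 5 and at a filter of 5 FPKM, and 5 at equal upper quartiles, with 0 higher in each. At equal upper quartiles the TFT counts were 1 lower and 2 higher (median −0.057, summed log2 ratio −0.35 against −0.60 as deposited). Without the 100 most abundant gene loci in the scaling they were 1 and 2 (median 0.35, sum 0.066), with 2 client loci lower and 3 higher. At equal sums over gene loci they were 0 and 3 (median 0.75, sum 0.47), with 1 client lower and 3 higher. At equal sums over all loci they were 0 and 10 (median 2.61, sum 2.32), with 1 client lower and 8 higher, and TFT1 (1.18) and TFT9 (1.83) reversed. These scalings move the TFT loci by construction, and all gene loci with them. The share of all gene loci past 2-fold was computed only for the values as deposited. The TFT and client counts under the other scalings thus have no background to be read against.

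Among alternatives chosen after seeing the data, a limit of 1.5-fold gave 3 lower and 2 higher TFT loci, and 7 lower and 2 higher clients. Without TFT1, 1 locus was lower (median −0.26, sum −0.33), and without TFT10 the median was −0.35. The planned shares weighted by coding length were not run, since no coding lengths were at hand. The number of fragments limits TFT10 in wild type most, at 124 assumed fragments.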

Other observations

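Transcripts next to the TFT loci, within 20 kb, differed in both directions. Of 32 neighbouring gene loci averaging 1 FPKM or more, 6 were at least 2-fold lower (18.8%) and 2 higher (6.25%), beside 15.0% and 11.6% of all gene loci, with a median difference of −0.21. Of the 2 higher, Solyc11g010220.1 near TFT6 was listed at 0 in wild type and read 6.62 FPKM in the overexpressor. It thus passed the filter through the overexpressor value alone. The other, Solyc04g012140.1 near TFT5, read 3.83 FPKM in wild type and 8.82 FPKM in the overexpressor. TFT8 lay between 2 lower loci on the opposite strand. On one side, 399 bp away, a locus joining Solyc12g010840.1 and Solyc12g010850.1 read 543 FPKM in wild type and 139 FPKM in the overexpressor. On the other side, 501 bp away, Solyc12g010870.1 read 71.0 and 25.5 FPKM. TFT8 itself differed by 1.31-fold. Next to TFT10, which was higher, Solyc04g076050.2 (85 bp away, opposite strand) read 39.6 and 16.6 FPKM, 2.31-fold lower.

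Of 14 gene-free neighbours averaging 1 FPKM or more, 2 were at least 2-fold lower (14.3%) and 3 higher (21.4%), with a median difference of 0.29, beside 15.9% and 25.9% of all 4382 such gene-free loci. The 3 higher ones were listed at 0 in wild type and read 129.5 FPKM near TFT6, 20.9 FPKM near TFT1 and 2.91 FPKM next to TFT9 in the overexpressor. They thus passed the filter through the overexpressor value alone. In the same order they span only 182, 232 and 561 bp, and the fragments behind their values were not computed. Whether their listed 0 stands for no fragments or for an estimate that failed was not tested, so no fold is given for them. Both lower ones lay upstream of TFT9 on its strand. The nearer (chromosome 7, 59056080 to 59057571), 1373 bp away, read 106 FPKM in wild type and 38.6 FPKM in the overexpressor, 2.71-fold lower. The farther (59054194 to 59055842) read 170 and 22.0 FPKM, 7.46-fold lower, against 2.12-fold for TFT9. Another gene-free locus upstream on that strand read 4.23 and 3.01 FPKM, and an unstranded one of 494 bp inside TFT9 read 9.08 and 9.28 FPKM. These loci were chosen after their values were seen, and whether they belong to the TFT9 transcript was not tested.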
